A study of Mus musculus with 6 samples.

Results

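The nuclear genes of the mitochondrial respiratory chain were examined for open chromatin at their promoters. All autosomal protein-coding genes of the GENCODE annotation of mm9 whose names start with Nduf, Uqcr or Atp5, or with Cox followed by 4, 5, 6, 7 or 8, were taken, which gave 85 gene records of 21410 autosomal coding genes. The names are thus the rule, which uses no measured value but was chosen with earlier results of these data known. The 85 records comprise 7 core and 28 accessory subunits of complex I, 4 complex I assembly factors, 8 subunits of complex III, 19 of complex IV, 5 of the F1 part and 10 of the Fo part and stalk of ATP synthase, and 4 that carry such a name without being a subunit. Ndufb8 has 2 records, ENSMUSG00000025204.4 and ENSMUSG00000091471.1, which overlap on chromosome 19 and were both kept.

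The study compared HATX mESCs, a haploid mouse embryonic stem cell line of mixed genomic background with a doxycycline-inducible Xist transgene, as WT cells and as cells in which all or most of Spen is deleted (Spen KO), an RNA-binding protein that Xist needs for gene silencing. The 6 samples were WT, Spen KO clone 2 and Spen KO clone 3, all grown in serum with LIF, each left untreated or given 2 ug/ml doxycycline for 48 hr. Accessibility was measured by ATAC-seq, in which the Tn5 transposase inserts sequencing adapters into open chromatin, and the values used here are 2 lists of reproducible peaks, the WT list and the Spen KO clone 3 list, each of which combines 2 technical replicates of a line. The study's methods call the replicates technical, but the labels give 1 sample per doxycycline state and line, so if the replicates of a list differ in doxycycline, the gaps between them include its effect. The lists name no doxycycline state, Spen KO clone 2 was not analysed here, and clone 3 is a single clone, so with 1 list per line the difference between the lines has no replicate check and no test was made. The WT list held 21698 autosomal peaks of 22753 and the Spen KO clone 3 list 22457 of 23722, and the read depth behind them is unknown. Of 7 stem cell markers found by name, Zfp42 had a promoter peak in both lists at the 90.3 and 90.7 percentile, Sox2 in the WT list only, Klf4 in the Spen KO clone 3 list only, and Pou5f1, Nanog, Esrrb and Dppa5a in neither, so promoter peaks do not check the cell type of the label. Of 10 markers of other cell types, Gata4 and Pax6 had a promoter peak in the WT list, Neurod1 had 1 in the Spen KO clone 3 list, and 7 had none.

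The respiratory chain passes electrons from NADH through complex I, and from succinate through complex II, to complex III, cytochrome c and complex IV, which reduces oxygen, and ATP synthase uses the resulting proton gradient to make ATP. Nearly all of its subunits are encoded in the nucleus, and the transcription factors NRF1, GABP (an ETS factor whose DNA-binding subunit is Gabpa) and YY1 are known regulators of many of these genes. Most are expressed in almost every tissue, and a few complex IV subunits exist as isoforms that are restricted to heart and muscle, testis or lung.

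Throughout, a promoter peak of a gene is a peak with its midpoint within 1 kb of a TSS of a coding transcript, and the nearest such peak was used where a gene had several. The values of each peak in both replicates, whose scale is unnamed, were averaged into its score, which is given only as a percentile among the autosomal peaks of its own list. The main TSS of a gene is the start that has the most coding transcripts within 50 bp. Intervals are 95% Wilson intervals for shares and 95% binomial intervals for medians, and they cover counting error only.

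Promoter sequences of 6 genes are shown because the results below turn on them. Each line gives mm9 sequence from 250 bp upstream of the main TSS to 30 bp downstream, 5′ to 3′ on the strand of the gene, with matches to the NRF1 or ETS letters defined below in capitals. Cox7c and Atp5e had the highest mean ranks of all respiratory chain promoters. Cox8a is the widely expressed and Cox8b the heart and muscle isoform of a complex IV subunit, with and without a peak. Ndufaf2 shares its promoter region with the DNA repair gene Ercc8 and had a strong peak in both lists, and Cox4i1 shares its own with Cox4nb and had a peak in neither. Atp5e and Cox4i1 were added to the set after their values were seen.
Cox7c (chr13:86186480-86186759, minus strand): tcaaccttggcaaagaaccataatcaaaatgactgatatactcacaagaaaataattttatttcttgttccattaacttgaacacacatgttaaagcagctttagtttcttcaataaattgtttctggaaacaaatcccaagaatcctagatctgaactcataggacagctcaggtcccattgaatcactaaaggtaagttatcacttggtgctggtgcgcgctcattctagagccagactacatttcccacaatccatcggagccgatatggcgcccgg
Atp5e (chr2:174289577-174289856, minus strand): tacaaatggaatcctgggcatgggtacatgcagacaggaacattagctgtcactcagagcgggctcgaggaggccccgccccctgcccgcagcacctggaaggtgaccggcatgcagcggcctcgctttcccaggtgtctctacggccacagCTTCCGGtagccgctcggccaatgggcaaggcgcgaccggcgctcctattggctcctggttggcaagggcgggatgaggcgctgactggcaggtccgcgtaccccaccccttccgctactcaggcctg
Cox8a (chr19:7292077-7292356, minus strand): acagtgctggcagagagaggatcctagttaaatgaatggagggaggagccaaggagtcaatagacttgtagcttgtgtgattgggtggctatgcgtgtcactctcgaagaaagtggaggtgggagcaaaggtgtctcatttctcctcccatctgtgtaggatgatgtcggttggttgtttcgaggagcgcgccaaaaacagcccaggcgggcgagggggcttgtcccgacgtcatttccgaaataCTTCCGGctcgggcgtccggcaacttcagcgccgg
Cox8b (chr7:148086316-148086595, minus strand): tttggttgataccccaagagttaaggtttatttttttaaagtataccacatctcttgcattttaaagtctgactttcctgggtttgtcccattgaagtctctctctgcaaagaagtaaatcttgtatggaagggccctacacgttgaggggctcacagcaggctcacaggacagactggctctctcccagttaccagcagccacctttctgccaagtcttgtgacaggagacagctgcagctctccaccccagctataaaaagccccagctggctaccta
Ndufaf2 (chr13:108948790-108949069, minus strand): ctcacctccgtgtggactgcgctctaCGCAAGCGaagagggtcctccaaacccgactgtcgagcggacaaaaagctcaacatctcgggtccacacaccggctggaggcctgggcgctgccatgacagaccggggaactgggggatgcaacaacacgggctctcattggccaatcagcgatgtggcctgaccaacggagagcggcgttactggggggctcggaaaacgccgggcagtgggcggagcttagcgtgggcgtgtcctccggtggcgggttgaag
Cox4i1 (chr8:123191940-123192219, plus strand): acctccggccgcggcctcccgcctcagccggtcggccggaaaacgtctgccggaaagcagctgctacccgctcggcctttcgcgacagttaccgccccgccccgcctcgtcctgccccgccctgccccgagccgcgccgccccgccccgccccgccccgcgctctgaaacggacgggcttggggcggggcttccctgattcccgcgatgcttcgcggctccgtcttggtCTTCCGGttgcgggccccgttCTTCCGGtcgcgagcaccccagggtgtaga

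In the 280 bp printed, Cox7c has 40% GC and 6 CpG, with no match to any motif searched, whereas Atp5e has 65.4% GC, 20 CpG and 1 ETS match. The Cox7c peak (chr13:86185835-86186697 in WT) extended downstream beyond the sequence printed. Cox8a has 17 CpG and 1 ETS match and Cox8b has 1 CpG and no match. Ndufaf2 has 24 CpG and 1 NRF1 match. Cox4i1 has the most GC and CpG of the 6, with 74.3% GC, 41 CpG, 2 ETS matches and 8 Sp1 matches, and like Cox8b it had no promoter peak.

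A promoter peak was found in the WT list for 54 of the 85 genes (63.5%, interval 52.9 to 73.0), against 44.7% of all autosomal coding genes. In the Spen KO clone 3 list 52 had a peak (61.2%, interval 50.5 to 70.8), against 40.7% of coding genes. Both lists held a peak for 48 (56.5%, interval 45.9 to 66.5, against 36.4%), the WT list only for 6 (against 8.35% of coding genes) and the Spen KO clone 3 list only for 4 (against 4.36%). The remaining 27 genes (31.8%, interval 22.8 to 42.3) had a promoter peak in neither list, against 50.9% of coding genes.

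Respiratory chain promoters are mostly rich in CpG, and the comparison with all coding genes changed once this was taken into account. A promoter was called CpG-rich where the 500 bp around the main TSS had at least 50% GC and an observed to expected CpG ratio of at least 0.6. This held for 66 of the 85 genes (77.6%, interval 67.7 to 85.2) and for 49.2% of coding genes. Among CpG-rich promoters, respiratory chain genes had a peak in the WT list in 69.7% (interval 57.8 to 79.4) and coding genes in 71.6%, and in both lists in 62.1% (interval 50.1 to 72.9) and 58.6%. Among the other promoters, 7 of 19 respiratory chain genes had a peak in both lists (36.8%, interval 19.1 to 59.0), against 14.9% of coding genes. The plot of shares by complex shows each group beside these backgrounds.

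**Figure D1:**
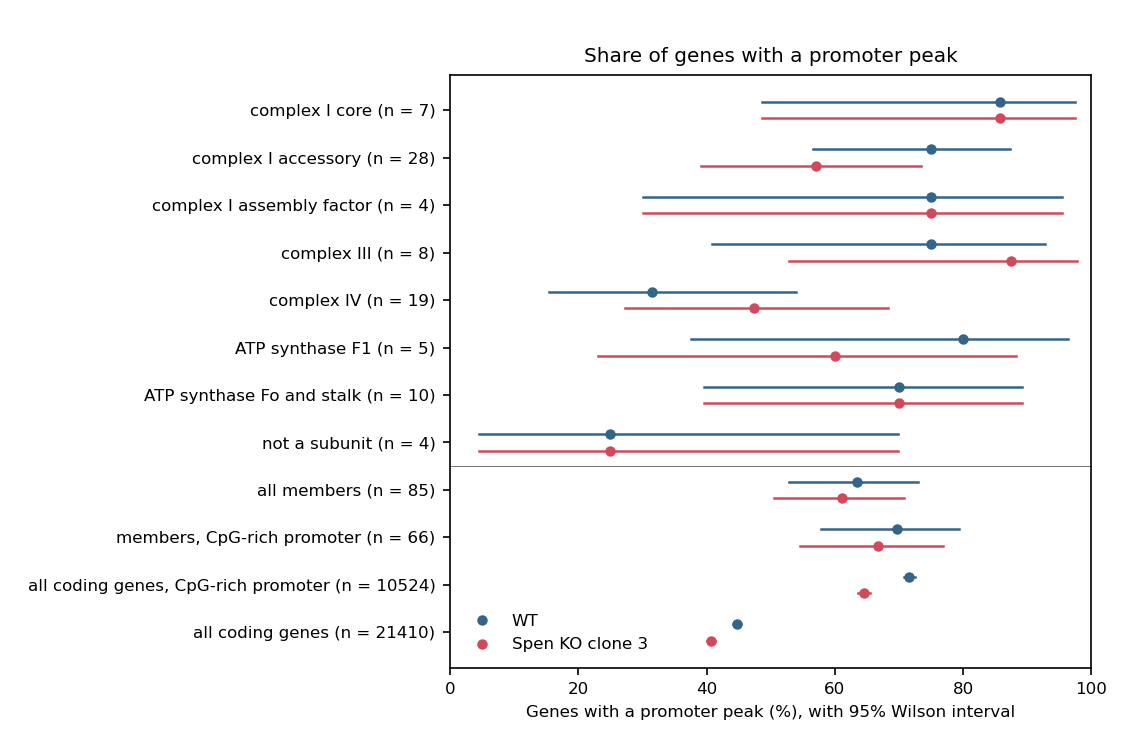
Share of genes with a promoter peak (x axis, %) in the WT and Spen KO clone 3 lists for each complex (members are the 85 respiratory chain genes) and, under the line, for all members and all coding genes; dots are shares and bars 95% Wilson intervals. Complex IV is lowest of the respiratory complexes, at 31.6% in WT and 47.4% in Spen KO clone 3, and the CpG-rich members lie close to all CpG-rich coding genes.

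Of the 7 core subunits of complex I, which carry its flavin and iron-sulfur clusters or lie at its quinone site, 6 had a peak in both lists. Ndufs8 ranked at the 95.9 percentile in WT and 81.2 in Spen KO clone 3, Ndufv1 at 88.9 and 87.4, and Ndufv2 at 81.2 and 61.2. Ndufs3 and Ndufs7 ranked low in both lists, at 30.1 and 31.7 and at 26.5 and 27.4. Ndufs1, which encodes the largest iron-sulfur subunit, had no promoter peak in either list, and the nearest peak lay 4.24 kb from its main TSS in WT and 4.30 kb in Spen KO clone 3.

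The accessory subunits of complex I, which surround the core without carrying redox centres, gave 21 of 28 promoters with a peak in WT and 16 of 28 in Spen KO clone 3, and all 16 of the latter also had a WT peak. A peak in WT only was found at 5 (17.9%, interval 7.88 to 35.6), against 8.35% of coding genes, inside the interval. These 5 were Ndufa10 (chr1:94370158-94371037), Ndufb3, Ndufb7, Ndufs5 and Ndufv3, at percentiles of 18.5, 37.4, 22.7, 43.1 and 60.7. The replicate percentiles of Ndufv3, the highest of them, were 68.8 and 48.6. Ndufa7, Ndufa9, Ndufb10, Ndufc2, Ndufs4 and both records of Ndufb8 had a peak in neither list. Ndufa6 ranked highest among the accessory subunits in WT, at 90.9, and stood at 79.8 in Spen KO clone 3, where Ndufa5 (84.0, and 86.5 in WT) and Ndufb6 (81.5, and 74.6 in WT) ranked above it. Among the assembly factors, which help to build complex I and are not part of it, Ndufaf2 had strong peaks (89.3 and 92.0), Ndufaf3 intermediate ones (53.7 and 51.7), Ndufaf4 weak ones (15.8 and 15.5) and Ndufaf1 none.

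Complex III transfers electrons from ubiquinol to cytochrome c. Of its 8 genes, 6 had a peak in both lists. The core proteins Uqcrc1 and Uqcrc2 ranked at 89.7 and 75.9 and at 67.5 and 85.9, and Uqcrfs1, the Rieske iron-sulfur protein, at 44.3 and 47.3. Uqcrq ranked at 62.6 and 59.0, Uqcrb at 55.8 and 48.5, and Uqcr10 at 26.7 and 60.2. Uqcr11 had a peak in the Spen KO clone 3 list only, at the 0.882 percentile, among the weakest of that list. Uqcrh, the hinge protein, had none.

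Complex IV had the smallest share of promoters with a peak, 6 of 19 in both lists. These were Cox7c, Cox8a, Cox7a2, Ndufa4 (named for complex I but a complex IV subunit), Cox7a2l (a supercomplex assembly factor) and Cox6b2. A further 3 had a peak in the Spen KO clone 3 list only (15.8%, interval 5.52 to 37.6, against 4.36% of coding genes). These 3 were Cox5a at the 33.2 percentile (chr9:57368892-57369311), Cox5b at 42.3 and Cox7a1 at 44.9. Cox4i1, Cox4i2, Cox6a1, Cox6a2, Cox6b1, Cox6c, Cox7b2, Cox8b, Cox8c and Ndufa4l2 had no peak in either list.

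Complex IV includes 8 genes for isoforms with restricted expression. Of these, Cox4i2, Cox6a2, Cox8b, Cox8c, Cox7b2 and Ndufa4l2 had no peak, Cox7a1 had a peak in the Spen KO clone 3 list and Cox6b2 in both. Cox6b2, known as the testis isoform of Cox6b, carried the widest peak of all respiratory chain genes, 1494 bp in WT (chr7:4703467-4704960), and 2 separate peaks of 479 and 748 bp in Spen KO clone 3 that both overlapped it. Their widely expressed counterparts were divided, with peaks in both lists at Cox7a2, Cox8a and Ndufa4 and in neither at Cox4i1, Cox6a1 and Cox6b1. In the Cox6b pair the restricted gene thus had peaks and the wide counterpart none. Without the restricted isoforms, 5 of 11 complex IV genes had a peak in the WT list and the same 5 in both (45.5%, interval 21.3 to 71.99), and 7 of 11 had one in the Spen KO clone 3 list (63.6%, interval 35.4 to 84.8).

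In ATP synthase, the F1 subunit genes Atp5b (the catalytic beta subunit), Atp5c1 (gamma) and Atp5e (epsilon, both of the central stalk) had a peak in both lists. Their percentiles were 88.2 and 85.2, 68.6 and 83.2, and 97.9 and 91.4. Atp5d had a peak in the WT list only, at the 0.410 percentile, the weakest peak of any respiratory chain gene. Atp5a1, the alpha subunit, had none. Of the Fo and stalk genes, 7 of 10 had a peak in both lists, and Atp5g3, Atp5l and Atp5o had none. The 3 Atp5g genes encode the same mature c subunit of the rotor ring, and their promoters differed. Atp5g1 ranked at 94.0 in WT and 92.2 in Spen KO clone 3, Atp5g2 at 41.3 and 29.6, and Atp5g3 had none, with the nearest peak 6.46 kb from its main TSS in WT and 18.6 kb in Spen KO clone 3. Among the names that are not subunits, Atp5s had a peak in both lists, and Atp5sl, Cox4nb and Atp5l-ps1, a pseudogene by its name, had none.

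**Figure D2:**
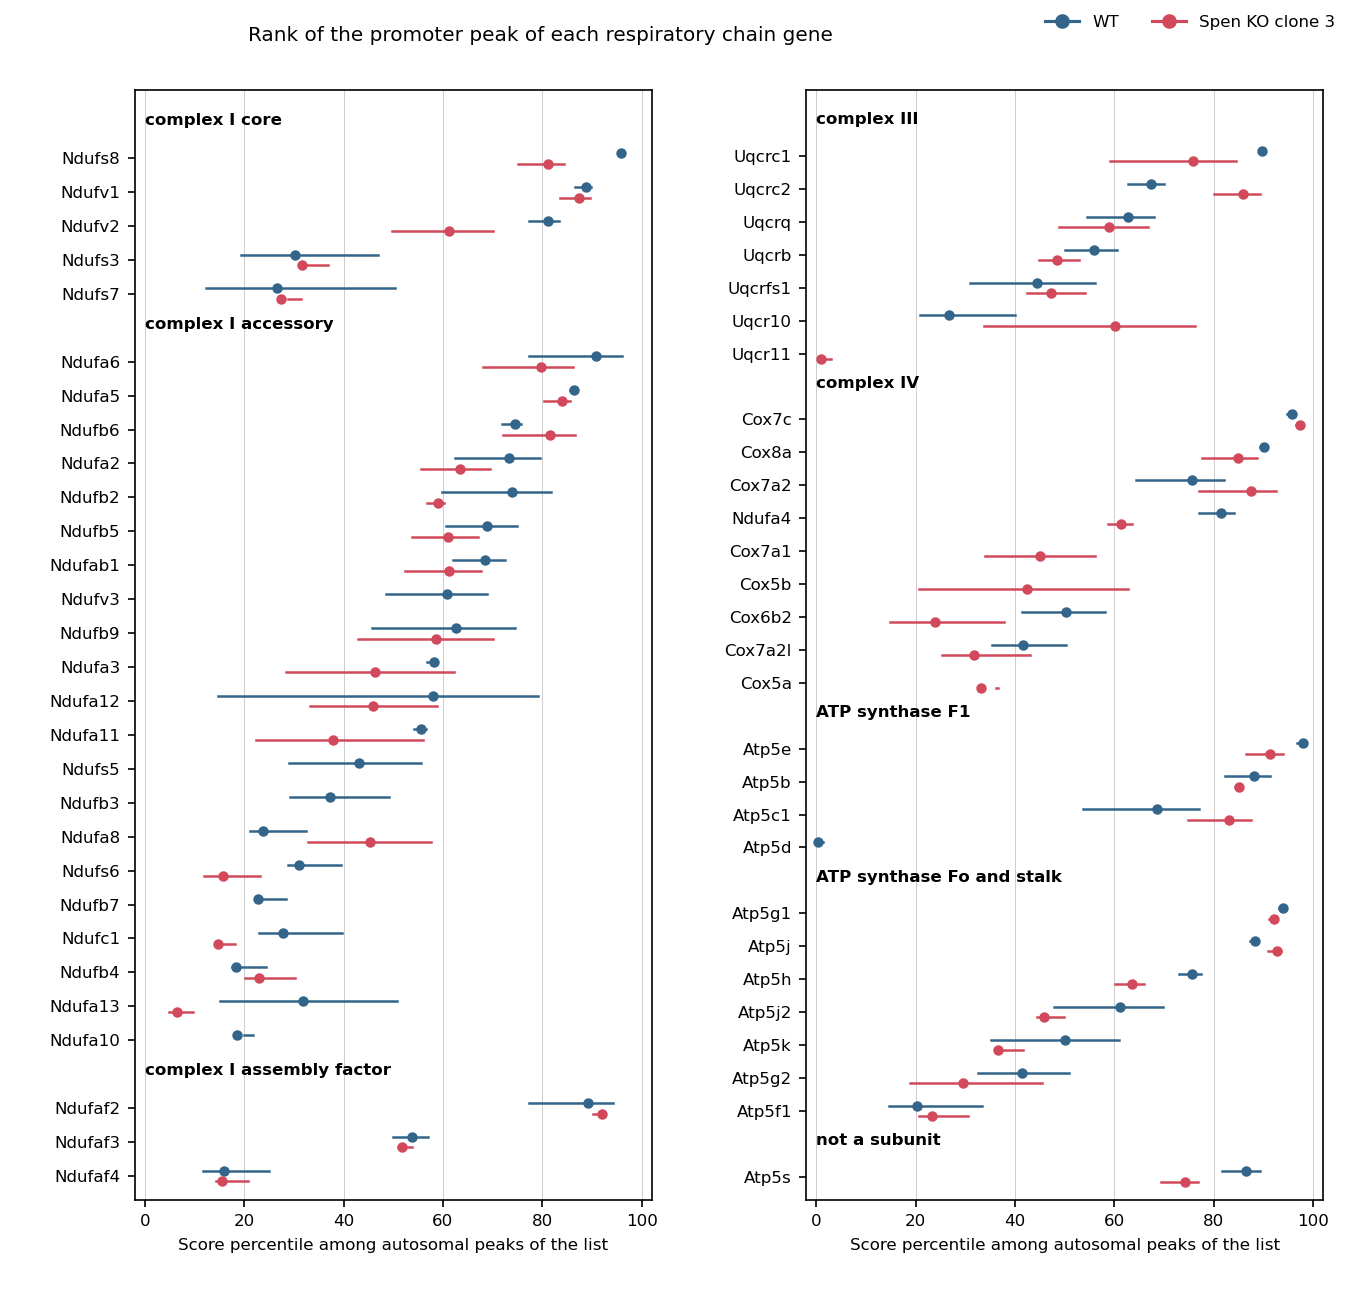
Score percentile (x axis) of the nearest promoter peak among the autosomal peaks of the WT and Spen KO clone 3 lists for 57 of the 58 respiratory chain genes with a peak, by complex; dots are the rank of the mean score and lines join the ranks of both technical replicates, and a dot can lie outside its line because the mean is ranked on its own. Cox7c, Atp5e and Atp5g1 stand above the 90 percentile in both lists, and Uqcr11 and Atp5d lie near 0.

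Repeated sequence, in which uniquely mapping reads can be lost, was counted around each main TSS, and its part in the missing peaks was not tested. Of the 31-base sequences within 500 bp of the main TSS, some occur more than 1 time in the genome. Their median share was 0% in the 27 genes without a promoter peak, 0.206% in the 48 with a peak in both lists and 3.66% in the 10 with a peak in 1 list. None of the 85 reached 50%, against 6.63% of coding genes, and the highest value was 33.2% at Atp5l-ps1. A CpG-rich promoter was found in 17 of the 27, and the other 10 included 6 of the restricted isoforms, Atp5a1 and Cox6c. Median GC was 55.2% (interval 51.4 to 58.2) without a peak and 60.6% (interval 58.4 to 62.4) with a peak in both lists. The nearest peak to the main TSS lay at a median of 10.1 kb in WT and 13.7 kb in Spen KO clone 3, and it lay within 5 kb in at least 1 list for Cox4i1, Cox4nb, Cox8b, Ndufb10 and Ndufs1. Cox6c was the most isolated, 181 kb from a peak in both lists.

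The median percentile of the nearest promoter peak was 60.9 (interval 50.3 to 73.3, n = 54) in WT and 59.0 (interval 45.9 to 63.6, n = 52) in Spen KO clone 3. Over all coding genes with a peak it was 62.8 and 60.3, inside these intervals. A percentile above 80 in both lists was found in 10 of 48 genes (20.8%) and in 26.8% of coding genes with a peak in both. In order of mean percentile the highest 5 were Cox7c (95.8 in WT and 97.4 in Spen KO clone 3), Atp5e (97.9 and 91.4), Atp5g1 (94.0 and 92.2), Ndufaf2 (89.3 and 92.0) and Atp5j (88.3 and 92.6). The promoter of Cox7c is not CpG-rich by the definition above, with 46.4% GC over 500 bp. Its peak midpoint lay 0.243 kb from the main TSS in WT and 0.2585 kb in Spen KO clone 3. The 500 bp thus cover only part of that peak. The lowest 5 were Ndufaf4 (15.8 and 15.5), Ndufa13 (31.9 and 6.44), Ndufb4 (18.3 and 23.1), Ndufc1 (27.8 and 14.8) and Atp5f1 (20.3 and 23.4). The peaks of Atp5j and Atp5f1 lay nearer to the starts of Gabpa and Wdr77. Neighbours in this order are often not separated by their replicates, since replicate percentiles of 1 list differed by a median of 12.3 points in WT and 10.0 in Spen KO clone 3. The widest such gap was at Ndufa12, with 79.2 and 14.6 in the WT replicates.

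Peaks of respiratory chain genes had a median width of 617.5 bp in WT (interval 573 to 682) and 563 bp in Spen KO clone 3 (interval 518 to 642), against 650 and 620 bp over all coding genes with a peak. For genes with a peak in both lists, the WT peak was wider in 36 of 48 (75%, against 64.4% of coding genes), and the median ratio of the Spen KO clone 3 width to the WT width was 0.934 (interval 0.908 to 0.957), against 0.949 over coding genes. Widths in WT ran from 304 bp at Atp5d to 1494 bp at Cox6b2, with Ndufb5 next at 949 bp, and in Spen KO clone 3 from 342 bp at Ndufa13 to 912 bp at Ndufb5.

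The plot of peak extents shows where each peak lies. In both lists the peak covered the main TSS in 41 of the 48 genes (85.4%, against 84.9% of coding genes in WT and 83.3% in Spen KO clone 3). The same 7 genes were exceptions in both lists. At Ndufa5 and Atp5j2 the peak lay over another start of the same gene. At Ndufa11, Atp5j, Atp5f1 and Uqcr10 its midpoint lay nearer to the start of another coding gene, 144 bp from Vmac, 24.5 bp from Gabpa, 20 bp from Wdr77 and 10 bp from Zmat5 in WT. At Ndufa13 the peak midpoint lay 745.5 bp upstream of the nearest start in WT and 708.5 bp in Spen KO clone 3. Ndufa13 had a second WT peak of 512 bp, with its midpoint 895.5 bp downstream, which overlapped no Spen KO clone 3 peak. In all, the WT peak lay nearest to another coding gene at 8 of 54 genes, and the Spen KO clone 3 peak at 6 of 52, and at these genes a peak cannot be assigned to the respiratory chain gene alone.

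**Figure D3:**
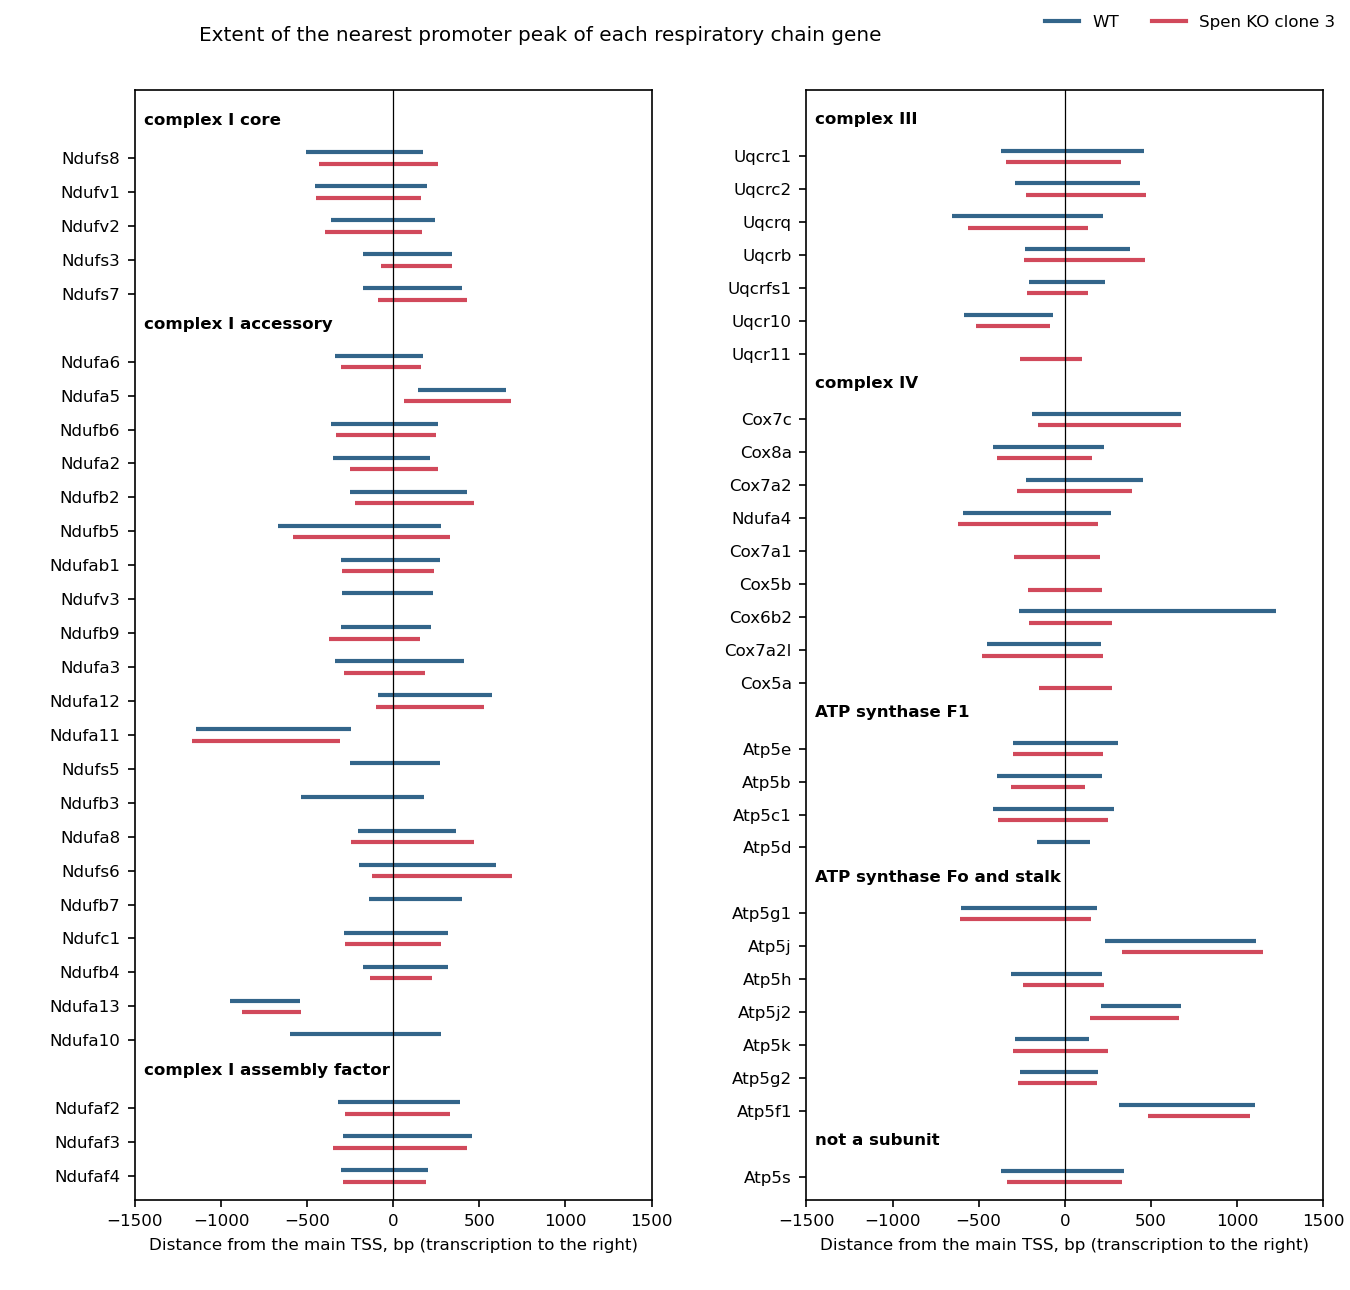
Extent of the nearest promoter peak of the same 57 genes relative to its main TSS (x axis, bp, transcription to the right) in the WT and Spen KO clone 3 lists, by complex and in the same order as in the plot of ranks. Most bars cover 0, and the Cox6b2 bar in WT is the longest at 1494 bp.

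Counted as peaks, the promoters held 55 in the WT list, of which 48 overlapped a Spen KO clone 3 peak and 7 were WT only (12.7%, interval 6.30 to 24.0, against 20.7% of all WT promoter peaks). The Spen KO clone 3 list had 53, of which 49 were shared and 4 were found in that list only (7.55%, interval 2.97 to 17.9, against 12.998%). The backgrounds lay inside both intervals. The median percentile was 30.01 over the 6 WT only genes (from 0.410 to 60.7) and 37.8 over the 4 Spen KO clone 3 only genes (from 0.882 to 44.9). Over the 48 with both it was 65.1 and 60.6. These medians were not compared with coding genes that had a peak in 1 list. At these 10 genes the nearest peak of the list that lacked one lay 7.12 kb (Uqcr11) to 81.4 kb (Ndufb3) from the main TSS. The 1 kb limit fell in a gap, as the farthest midpoint inside it lay at 895.5 bp and the nearest outside it at 2696.5 bp, a second peak of Atp5g2.

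The ranks of the promoter peaks were compared between the lists. The rank shift, the Spen KO clone 3 percentile minus the WT percentile, had a median of −5.84 points over the 48 genes (interval −11.7 to −1.45), against −2.95 over the 7790 coding genes with a peak in both lists, and the median absolute shift was 10.5 points, against 8.03 over coding genes. The gaps between replicates were also larger, with medians of 12.3 against 8.06 points in WT and 10.05 against 8.98 in Spen KO clone 3, and their part in the shift was not tested. It was below 0 in 33 of 48 (68.8%) and in 63.2% of coding genes, but with the scores of replicate 2 alone in 28 of 48 (58.3%) and in 61.6%, so that the order of the shares turned. The median shift was −3.08 points with replicate 1 alone, against −2.11 over coding genes, and −3.81 against −1.81 when peaks were ranked among promoter peaks. Both replicate percentiles of WT lay above both of Spen KO clone 3 in 13 of 48 genes (27.1%), against 30.1% of coding genes. Without Cox6b2, for which the direction depends on the peak chosen, it was 12 of 47 (25.5%), the shift was below 0 in 32 of 47 (68.1%) and its median was −5.17. The opposite held in 4 of 48 (8.33%), against 13.8%, and in the other 31 genes the replicates overlapped. The plot of cumulative shifts shows the genes beside all coding genes.

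**Figure D4:**
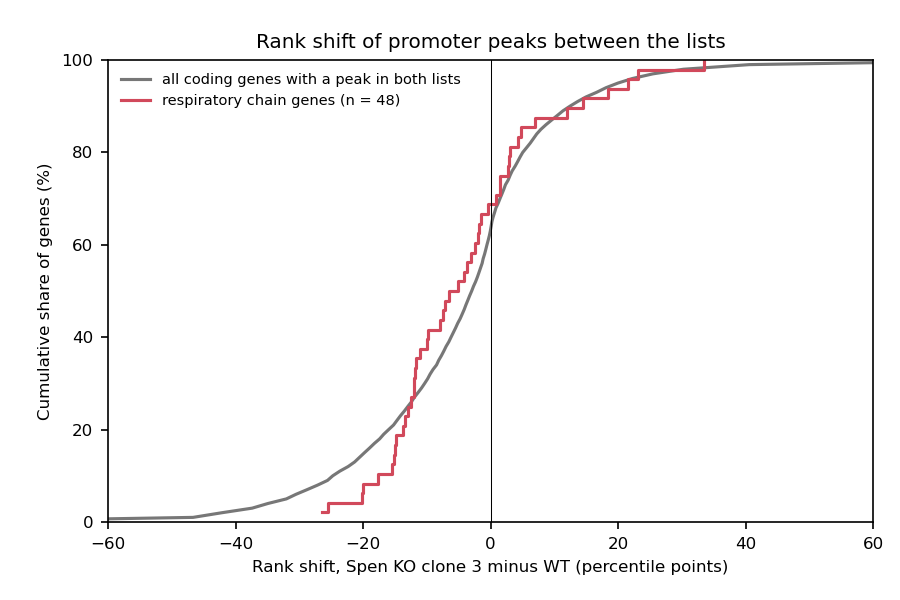
Cumulative share of genes (y axis, %) by rank shift between the lists (x axis, Spen KO clone 3 minus WT, percentile points) for the 48 respiratory chain genes and all 7790 coding genes with a promoter peak in both lists. The respiratory chain curve runs from −26.4 (Cox6b2, whose direction depends on the peak chosen, with Ndufa13 next at −25.4) to 33.5 and crosses the 50% level at a lower shift, near −5.84 against −2.95.

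The 13 genes with both WT replicates above both of Spen KO clone 3 were Ndufs8, Ndufv2, Ndufa13, Ndufc1, Ndufs6, Uqcrc1, Cox6b2, Cox8a, Ndufa4, Atp5e, Atp5g1, Atp5h and Atp5s. Cox6b2 had the lowest shift, −26.4, from replicate percentiles of 41.4 and 58.2 in WT to 37.9 and 14.8 in Spen KO clone 3. That value rests on the narrower of its 2 Spen KO clone 3 peaks, and the other stood at 70.4, above the WT peak at 50.3, so that no direction can be given for this promoter. Ndufa13, an accessory subunit of complex I also known as Grim19, shifted by −25.4, from 50.9 and 15.2 to 9.71 and 4.79. Ndufa4 shifted by −20.1, from 84.1 and 77.1 to 63.6 and 58.7. Ndufv2, a core iron-sulfur subunit, shifted by −19.9, from 83.3 and 77.4 to 49.8 and 70.0. Ndufa11 followed with −17.7, but its replicates overlapped, with 56.6 and 54.2 in WT and 56.1 and 22.4 in Spen KO clone 3. Its peak lay nearer to the start of Vmac in both lists.

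The 4 genes with both Spen KO clone 3 replicates above both of WT were Ndufa8, Uqcrc2, Atp5j and Cox7c. Ndufa8, an accessory subunit of complex I, shifted by 21.6 points, from 32.5 and 21.3 in the WT replicates to 32.9 and 57.7 in those of Spen KO clone 3, so the lists came close to overlapping. Uqcrc2 shifted by 18.4, from 70.0 and 62.8 to 79.96 and 89.3. Atp5j and Cox7c shifted by 4.34 and 1.55 points. In both lists the peaks of Atp5j and Uqcr10 lay nearer to the start of another coding gene, Gabpa and Zmat5. Uqcr10 had the highest shift, 33.5, from 20.9 and 40.1 to 76.3 and 33.8, but the replicates of the lists overlapped. Atp5c1 shifted by 14.6 points, also with overlapping replicates. By complex, against 63.2% of coding genes, the shift was below 0 in 13 of 16 accessory complex I genes with both peaks, 3 of 6 core genes, 2 of 3 assembly factors, 3 of 6 in complex III, 4 of 6 in complex IV (3 of 5 without Cox6b2), 2 of 3 in F1 and 5 of 7 in Fo and stalk.

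Respiratory chain genes often start head to head with another coding gene. A coding TSS on the other strand within 1000 bp upstream was present for 20 of 85 genes (23.5%, interval 15.8 to 33.6), against 9.73% of all coding genes, and for 28.8% (interval 19.3 to 40.6) of those with a CpG-rich promoter, against 16.8%. The closest pairs were Ndufs1 with the elongation factor gene Eef1b2 at 3 bp, Ndufa7 with the ribosomal protein gene Rps28 at 29 bp, Uqcrb with Gm10767 at 37 bp, Ndufa8 with Morn5 at 52 bp and Ndufb3 with Fam126b at 61 bp. Ndufa11 and Vmac (63 bp), Ndufb9 and Tatdn1 (80 bp), Ndufa2 and Ik (108 bp), Ndufaf2 and Ercc8 (113 bp), Atp5c1 and Kin (114 bp) and Ndufa5 and Asb15 (131 bp) followed. The wider pairs were Ndufv3 and Wdr4 (150 bp), Atp5h and Kctd2 (164 bp), Uqcrh and Lrrc41 (198 bp), Uqcr10 and Zmat5 (336 bp), Atp5d and Dos (622 bp) and Atp5j and Gabpa (686 bp). Cox4i1 and Cox4nb, 178 bp apart, are partners of each other.

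All 15 genes with a partner and a WT peak had the same nearest promoter peak as their partner, and so did all 12 in Spen KO clone 3, so the accessibility of the pair cannot be told apart in these lists. Of the 20, 12 had a peak in both lists (60%, interval 38.7 to 78.1, against 67.4% of all coding genes with such a partner). Without a partner it was 36 of 65 (55.4%, interval 43.3 to 66.8), against 33.0% of coding genes, and within CpG-rich promoters 30 of 47 (63.8%, interval 49.5 to 76.03), against 55.9%, inside the interval. Of the 20 genes with a partner, Atp5d, Ndufb3 and Ndufv3 had a peak in the WT list only (15%, interval 5.24 to 36.0). The share was 11.3% over all coding genes with a partner, inside the interval. Cox4i1, Cox4nb, Ndufa7, Ndufs1 and Uqcrh, with their partners, had no peak in either list, which includes the promoters of the translation genes Eef1b2 and Rps28. The pair of Atp5j with Gabpa joins a subunit of the ATP synthase stalk to the ETS factor known to regulate respiratory chain genes, and the peak they share (878 bp in WT and 819 bp in Spen KO clone 3) ranked at 88.3 and 92.6.

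Motifs were searched in the window from 250 bp upstream to 50 bp downstream of the main TSS on both strands, and no motif contains another. NRF1 letters (CGCANGCG) were found at 25 of 85 promoters (29.4%, interval 20.8 to 39.8), against 10.99% of all promoters of the same length, and within CpG-rich promoters at 36.4% (interval 25.8 to 48.4) against 20.8%. ETS letters (CCGGAAG) were found at 16 (18.8%, interval 11.9 to 28.4, against 11.2%), and within CpG-rich promoters at 24.2% against 19.4%, inside the interval of 15.5 to 35.8. YY1 letters (AANATGGCG) were found at 7 (8.24%, interval 4.05 to 16.04, against 3.21%), and within CpG-rich promoters at 10.6% (interval 5.23 to 20.3) against 5.78%, inside the interval. The CCAAT box was found at 36.5% against 37.4%. Sp1 letters (GGGCGG) were found at 44.7% against 44.8%, but within CpG-rich promoters at 47.0% (interval 35.4 to 58.8) against 73.8%. These are matches of letters and not measured binding.

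More than 1 NRF1 match was found at 10 promoters, Atp5c1, Atp5g2, Atp5k, Atp5l, Cox6a1, Ndufa11, Ndufaf4, Ndufb4, Uqcr11 and Uqcrc1, of which Atp5l and Cox6a1 had no peak in either list. A peak in both lists was present at 16 of 25 promoters with NRF1 letters (64.0%, interval 44.5 to 79.8, against 57.8% of all promoters with them) and at 32 of 60 without (53.3%, interval 40.9 to 65.4, against 33.7%). With ETS letters it was 7 of 16 (43.8%, interval 23.1 to 66.8), against 60.8% of all promoters with them, inside the interval, and without them 41 of 69 (59.4%, interval 47.6 to 70.2), against 33.3%. With YY1 letters it was 3 of 7 (42.9%, interval 15.8 to 74.95), against 54.9%, inside the interval, and without them 45 of 78 (57.7%, interval 46.6 to 68.04), against 35.8%.

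**Figure D5:**
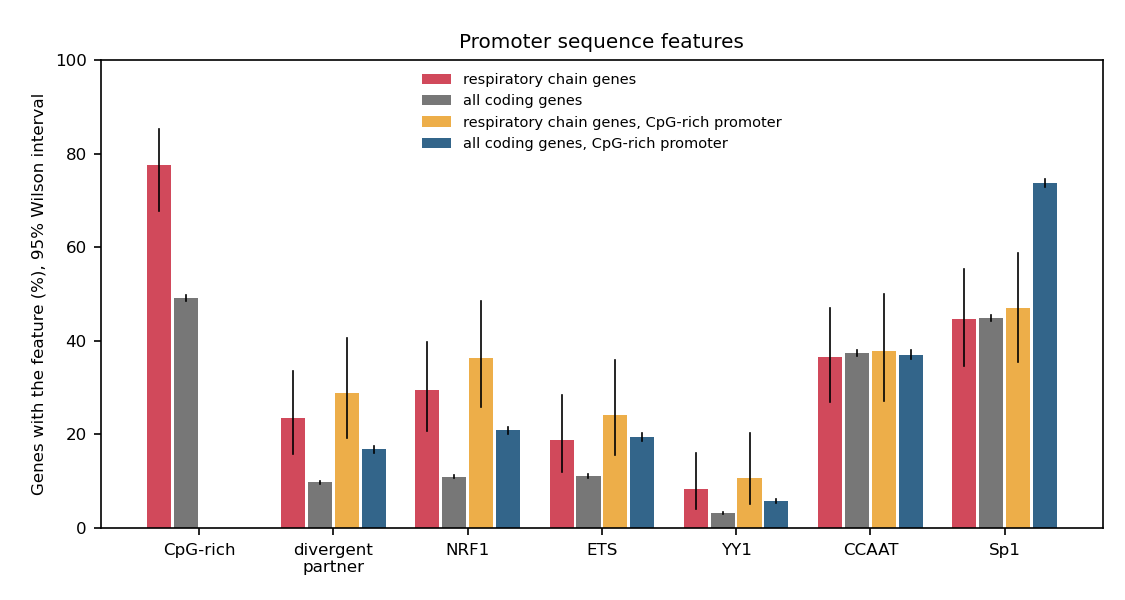
Share of genes (y axis, %, from 0) with a CpG-rich promoter, a divergent coding partner or letters of each motif within 250 bp upstream to 50 bp downstream of the main TSS, for the 85 respiratory chain genes, all coding genes and the CpG-rich part of each; lines are 95% Wilson intervals. NRF1 letters are at 29.4% of respiratory chain promoters against 10.99% of all, and Sp1 letters at 47.0% of the CpG-rich ones against 73.8%.

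Other genes of the pathway were taken from a list of complex II subunits, cytochromes c and c1, Etfdh, the ATP synthase inhibitor Atpif1 and assembly factors, of which 27 were found by name and Timmdc1 was not. Of the 27, 17 had a promoter peak in both lists (63.0%, interval 44.2 to 78.5), against 36.4% of all coding genes and 58.6% of those with a CpG-rich promoter. A further 2 had a peak in the WT list only (Sdhd and Atpaf2, against 8.35% of coding genes), 1 in the Spen KO clone 3 list only (Cox19, against 4.36%) and 7 in neither (Sdha, Cyc1, Surf1, Sco2, Cox15, Nubpl and Acad9). In complex II, which links the citric acid cycle to the chain, Sdhb ranked at 87.7 in WT and 69.2 in Spen KO clone 3 and Sdhc at 49.4 and 33.7. Cycs, cytochrome c, ranked at 66.5 and 72.1, and Etfdh, which feeds electrons from fatty acid oxidation, at 99.3 and 98.8, above every subunit gene. The lowest shift of the list was at Lyrm7, an assembly factor of complex III, from 96.2 to 63.7. Of 7 regulators, Gabpa, Yy1 and Tfam had a promoter peak in both lists, Nrf1 and Ppargc1b in the WT list only, and Ppargc1a and Esrra in neither.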

How the data were processed

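ATAC-seq libraries of WT and Spen KO HATX mESCs were, per the study's methods and the submitters' processing notes, demultiplexed with bcl2fastq, trimmed with cutadapt and aligned to mm9 with Bowtie2, keeping unique, properly paired and deduplicated reads. The authors called peaks per technical replicate with MACS2, kept those with an irreproducible discovery rate (IDR) of at most 0.05 and compared lists with bedtools. The deposited columns hold peak positions, a score per replicate whose scale is not given in the sources used here, and the IDR. A list thus holds only peaks found in both replicates, so a gene without a peak is not shown to be closed.

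Scores were averaged over replicates and ranked as percentiles within each list, because 2 lists of unknown depth are not on 1 scale. Peaks overlapping by at least 1 bp were called shared. TSSs came from GENCODE release M1 for mm9, and sequences and 31-base copies from the mm9 genome. Python 3.11.15, pandas 2.3.3, scipy 1.17.1, pysam 0.24.0 and numba 0.67.0 were used, and scripts were tested on simulated data. Groups followed the sample labels. The members and gene lists were chosen with earlier results of these data known. Every member is accounted for by complex, and values are given for members with a peak in 1 list or neither, with 2 peaks, with a divergent partner or apart between the lists, for isoform pairs and core complex I subunits, and for the highest and lowest 5 by percentile and by shift. Further members and pathway genes were named after their values were seen. Alternatives covered the distance to the TSS, IDR, score, overlap, replicate and gene set. No p-value was computed, since each line has 1 list. The values of some items are not reported here, and the counts include them.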

Additional observations from a re-analysis of the deposited data

How the results depend on the processing

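Of 71 alternative values for 14 results, 65 of them planned, 65 stayed within 1.5 times the count or within the interval of the median. None of the median rank shifts, the only values that could change sign, did so. At an IDR of at most 0.01, 2 genes (2.35%, against 1.87% of coding genes) and 2 peaks were left in the Spen KO clone 3 list only. With scores at or above the list median, 30 genes had a peak in Spen KO clone 3 (35.3%, against 24.7% of coding genes). A peak was left in both lists at 29 (34.1%, against 22.8%) and in Spen KO clone 3 only at 1 (1.18%, against 1.90%). Ranked among promoter peaks alone, the WT median percentile was 49.6 and that of Spen KO clone 3 was 50.4, and with replicate 2 scores alone 56.3 and 58.7, so the order of the medians of the lists turned under both. The IDR and score limits leave fewer peaks, and the cause of these changes was not tested. When a peak was counted only for the gene with the nearest TSS, an alternative added after seeing the data, 46 genes had a peak in each list (54.1%, against 40.5% of coding genes in WT and 36.95% in Spen KO clone 3) and 41 in both (48.2% against 32.3%). The median rank shift was −3.08 points with replicate 1 scores alone (all coding genes −2.11), −5.33 with replicate 2 scores alone (−3.19), −3.81 among promoter peaks (−1.81), and −5.17 without Cox6b2, also added after seeing the data. No paired analysis was possible because the result comes from no test. Ranks could be taken from 1 replicate, but the presence of a peak could not, because each list holds only peaks found in both. Read depth is unknown, the replicates are technical by the study's methods, and clone 3 is 1 clone, so clone, line and Spen cannot be told apart.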

Other observations

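3 further coding genes fit the names but lie on the X chromosome and were outside the comparisons. Ndufb11, an accessory subunit of complex I, had a promoter peak of 698 bp in WT and 896 bp in Spen KO clone 3, whose scores stood at the 97.4 and 91.2 percentile of the autosomal peaks of each list. Ndufa1, another accessory subunit of complex I, and Cox7b, a subunit of complex IV, had no promoter peak in either list.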
